A study of Sus scrofa with 6 samples.

Results

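The 9 genes SHH, PTCH1, BOC, CDON, HHIP, SMO, GLI1, GLI2 and GLI3, of 25859 annotated genes, are core members of the Hedgehog pathway and were chosen by name. Their accessible chromatin was taken as every peak that overlaps the gene body or the 2 kb upstream of its start in the pig genome Sscrofa11.1. The Hedgehog pathway carries a secreted signal across a tissue. Without ligand, the receptor PTCH1 keeps the membrane protein SMO inactive, and GLI3 acts mainly as a repressor of target genes; when a ligand such as SHH binds PTCH1 with the help of the coreceptors BOC and CDON, SMO is released and GLI1, GLI2 and GLI3 act on their targets, among which PTCH1, HHIP and GLI1 feed back on the signal. In the vertebrate embryo SHH is released by the notochord and the floor plate of the neural tube, and it acts on the somite, where it takes part in the induction of the sclerotome and of the first myogenic cells.

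Chromatin accessibility was measured in single cells by transposase (scATAC-seq, 10x Genomics) in 6 libraries of embryonic pig tissue. Somites were collected at embryonic day 18 (E18) and embryonic day 21 (E21), and myotome at embryonic day 28 (E28), each from Tibetan pigs (ZZ) and from DurocxTibetan pigs (DZ). Each tissue was a mixture of embryos of the same sow, by the study's methods. Each stage and breed is represented by 1 library, and E28 differs from the earlier stages in tissue as well as in age: stage and tissue cannot be told apart there.

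Of 64439 barcodes, 58809 (91.3%) had 2000 to 30000 counts and were kept, which left 89816504 to 133037579 counts per library and a median of 8084.5 to 11452 counts per barcode. Between 113 and 157 barcodes were shared by any pair of libraries. The peaks, which the authors called separately in each library, covered 168 to 191 Mb at E18, 147 to 158 Mb at E21, but 102 to 108 Mb at E28. A difference in counts between stages can therefore come with a difference in how much of a gene was called as peak. For the called windows and most of the named regions of the 9 genes, the covered length or the difference with it as an offset is given. The offset moved the median log2 difference between E28 and E18 to 0.52 over all windows and 0.42 over all regions. A value near these medians with the offset is therefore typical of the series. Clusters of cells, built without the regions around the 9 genes, were named from marker genes. The E28 libraries labelled myotome held 14.6% (ZZ) and 22.1% (DZ) myogenic-like cells and 78.0% and 70.8% fibroblast and mesenchyme-like cells. The E18 libraries held 7.10% and 7.06% myogenic-like cells, with 24.5% and 38.5% neuron-like and 41.8% and 31.0% epithelial-like cells. A sum over a library cannot tell fewer cells of a type from less open chromatin in each cell. Values within fibroblast and mesenchyme-like or myogenic-like cells alone are therefore given for each window of the 9 genes called in the sum or in either class. They are also given for some of the regions. These values use the peaks of the whole library and no offset, so a difference in covered length remains in them. A class can also hold several kinds of cells, so a shift between these can remain too.

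The peaks of the 6 libraries were merged where they overlapped, which gave 294825 regions, and 237 of them lay in the 9 genes. GLI2 held 75 regions, GLI3 held 73, BOC 26, PTCH1 22, CDON and HHIP 17 each, SMO 5, and SHH and GLI1 1 each. By position, 180 were intronic, 47 overlapped an exon and 10 overlapped a promoter, the span from 2 kb before to 100 bp after the annotated gene start. All 6 libraries had a peak in 82 of the 237 regions, among them 9 promoter regions, 1 for each gene. The coordinates below are those of the deposited peaks after merging, distances are from the annotated gene start to the centre of the region, and sequences and gene models are those of NCBI RefSeq for Sscrofa11.1.

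GLI proteins bind GACCACCCA and its near variants. An exact search of both strands (GACCACCCA or its reverse complement TGGGTGGTC) found it in 2 of the 237 regions (0.844%), both in PTCH1, the receptor gene that is itself a known GLI target. The 3 matches are shown because these regions also moved in opposite directions between stages. The first lies 105 bp inside the annotated start, in the untranslated part of the first exon. The other two lie 4.40 and 7.57 kb downstream, in the first intron of the longest transcript, and the farther one is on the opposite strand. Capitals mark the GLI sequence and each line is written 5′ to 3′ on the strand of the match.

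PTCH1 promoter region, chr10:26627256-26627284, plus strand: tggcgcggcaGACCACCCAcgccgagggc

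PTCH1 region at 7.76 kb, chr10:26631503-26631622, plus strand: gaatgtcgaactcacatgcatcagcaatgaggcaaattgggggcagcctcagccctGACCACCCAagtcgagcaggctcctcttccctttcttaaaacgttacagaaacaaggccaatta

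PTCH1 region at 7.76 kb, chr10:26634671-26634790, minus strand: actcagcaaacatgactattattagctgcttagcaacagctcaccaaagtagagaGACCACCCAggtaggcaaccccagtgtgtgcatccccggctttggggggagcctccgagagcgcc

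The sequence was not frequent in open chromatin. Of all 294825 regions 0.93% held it in their central 1000 bases, against 0.844% of the 237. Of the 78533 regions with a peak in all libraries, 0.963% held it there, against 2 of the 82 Hedgehog regions (2.44%). The 2100-base promoter span held it in 409 of 25859 genes (1.58%) and in 0 of the 9, since the PTCH1 match at 105 bp lies just past that span. A match describes the letters only and is no measure of binding.

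SHH, the ligand, had 1 region, which spanned the whole gene (chr18:2542941-2555498, 12558 bp). Its window, the gene body plus 2 kb upstream, held 58.9 CPM (counts per 1e6 counts of the library) in ZZ and 53.7 CPM in DZ at E18, 53.5 and 48.4 CPM at E21, then 41.5 and 38.8 CPM at E28. Both E28 libraries were below both E21 and both E18 libraries. The log2 difference between E28 and E18 was -0.55 ± 0.0812 (SE, 2 libraries per stage), with an adjusted p of 0.00837 in edgeR's quasi-likelihood test over 22612 gene windows. Within the window, the peak over SHH was whole at E18 (1 peak in each library) and split into 4 and 3 peaks at E28. The whole region held 1 and 2 peaks at E18 and 5 and 4 at E28. A value for the promoter alone depends on that split: summed over the peaks of the promoter span the log2 difference was -3.93 (adjusted p = 0.0245). The peaks also covered less, 6690 and 7853 bp against 12558 and 11018 bp. When that length entered the model as an offset the log2 difference was 0.14 (adjusted p = 0.400), and without the E18 ZZ or the E18 DZ library the adjusted p was 0.0738 or 0.0768. Without the offset it was smaller in the classes tested, -0.28 in fibroblast and mesenchyme-like cells alone (adjusted p = 0.0745) and -0.24 in myogenic-like cells alone (adjusted p = 0.176). Classes not tested also fell in mean CPM from E18 to E28. These were epithelial-like (61.05 to 36.56), endothelial-like (59.02 to 31.97) and neuron-like cells (59.17 to 45.05). Neuron-like cells had the highest mean level, 55.9 CPM (34.5 to 63.9 over the 6 libraries), and were the highest cluster in 3 of 6 libraries. Their share went from 24.5% and 38.5% of cells at E18 to 2.46% and 3.83% at E28, and its part in the difference was not tested.

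PTCH1 held 22 regions over its 76.1 kb body (chromosome 10). Its window held 224 and 250 CPM at E18, 258 and 262 CPM at E21, then 223 and 215 CPM at E28, and E28 and E18 did not differ past the threshold (log2 -0.17 ± 0.0756 between E28 and E18, adjusted p = 0.122). Within it, regions moved in both directions. The region around the annotated start (chr10:26626186-26628750), which holds the first GLI sequence, gave 25.7 and 29.0 CPM at E18, 24.5 and 22.7 CPM at E21, then 18.2 and 16.7 CPM at E28. Every E28 value was under every earlier one, with a log2 difference from E18 of -0.70 ± 0.129 (adjusted p = 0.0111). The covered length went from 2554 and 2524 bp (E18) to 2064 and 2131 bp (E28), and with it as an offset the difference was still -0.42 (adjusted p = 0.0213). The difference was present in fibroblast and mesenchyme-like cells alone (-0.73, adjusted p = 0.0128), and the difference was -0.30 in myogenic-like cells alone (adjusted p = 0.252). Without the E18 DZ library the adjusted p over all cells was 0.127.

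The region centred 7.76 kb downstream (chr10:26630944-26638914, 7971 bp) moved the other way. It holds 5 further annotated transcript starts of PTCH1, the other 2 GLI sequences and the promoter of the antisense noncoding RNA LOC106505124, whose accessibility cannot be told apart from that of PTCH1 in unstranded data. Its counts were 101 and 109 CPM at E18, 127 and 142.7 CPM at E21, then 154 and 154 CPM at E28. The 3 stages did not overlap. The log2 difference between E28 and E18 was 0.50 ± 0.0716 (adjusted p = 0.00603), and 0.75 with covered length as an offset (adjusted p = 1.095e-07), since the covered length was slightly shorter at E28. The rise was present in fibroblast and mesenchyme-like cells alone (0.59, adjusted p = 0.00532) and in myogenic-like cells alone (0.58, adjusted p = 0.00239). In myogenic-like cells the 6 libraries gave 91.4, 101, 115, 130, 138 and 137 CPM in the order of stage and breed. In the start region, neuron-like cells held 53.6 and 36.9 CPM at E28 and fibroblast and mesenchyme-like cells 15.8 and 15.4 CPM. The log2 ratio of these classes was 0.29 and 0.10 at E18, 0.84 and 0.81 at E21, then 1.76 and 1.26 at E28. Neuron-like cells were few at E28.

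**Figure D1:**
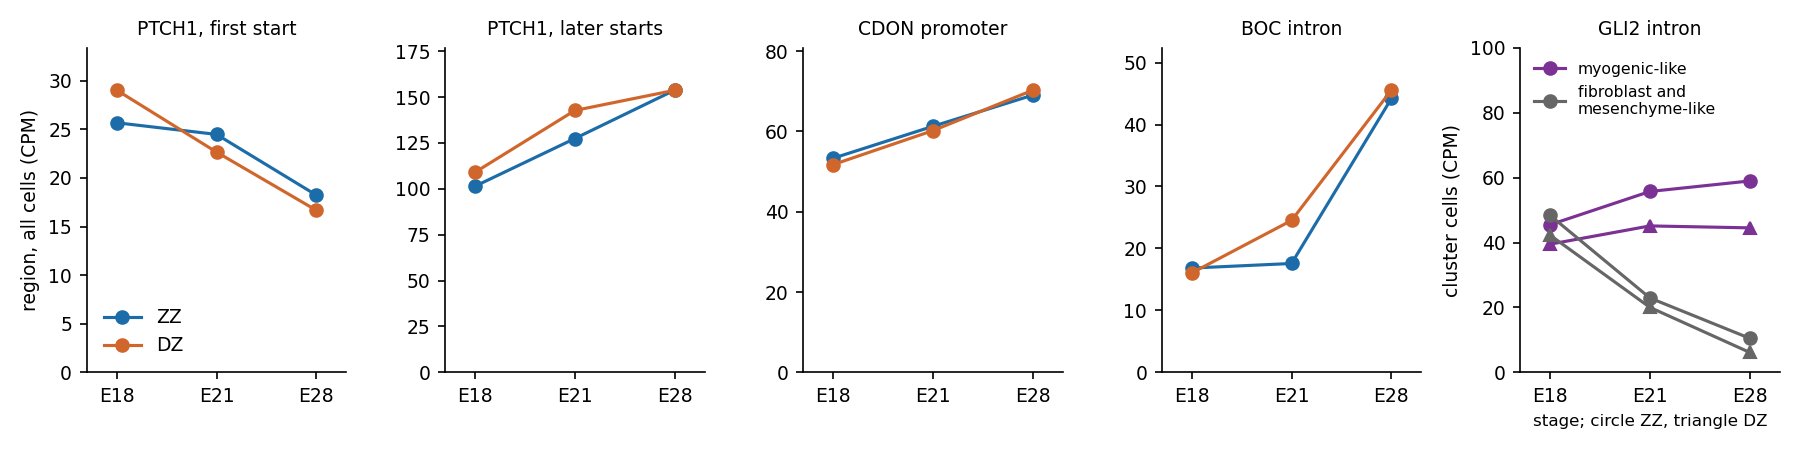
CPM of the PTCH1 start region, the PTCH1 region 7.76 kb downstream, the CDON promoter region and the BOC intron region 43.8 kb downstream, and of the GLI2 intron region 36.1 kb downstream in fibroblast and mesenchyme-like and in myogenic-like cells, by stage, with 1 point per library (in the last panel circles are ZZ and triangles DZ). The PTCH1 start region falls from 25.7 and 29.0 to 18.2 and 16.7 CPM while the downstream region rises from 101 and 109 to 154 and 154 CPM, and the GLI2 region falls from 48.4 and 42.3 to 10.5 and 6.13 CPM in fibroblast and mesenchyme-like cells and holds 39.5 to 59.0 CPM in myogenic-like cells.

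Further into PTCH1, the regions named by size of change fell. The exon region at 33.8 kb gave 5.48, 5.85, 5.82 and 5.71 CPM in the 4 somite libraries and 0.390 and 0.0912 CPM at E28, where its peaks covered 160 and 61 bp against 1182 and 1166 bp in the E18 libraries. Its log2 difference was -4.73 ± 0.603 (adjusted p = 0.00469), and -1.27 with the offset (adjusted p = 0.00119). The exon region at 69.8 kb fell by 1.52 ± 0.159 on the log2 scale (adjusted p = 0.00336), with a shorter covered length at E28, and was 0.79 higher with the offset (adjusted p = 0.000621), so its direction depends on that setting. The intron region at 21.7 kb held 15.7 and 20.3 CPM at E18, 29.3 and 24.5 CPM at E21, then 9.63 and 9.52 CPM at E28, so it was highest at E21. It fell by 1.48 ± 0.182 from E21 to E28 (adjusted p = 0.0261), while its peaks went from 5225 and 5343 bp to 2084 and 1950 bp. Between E28 and E18 it was -0.95 (adjusted p = 0.0120), but -0.02 with the offset, and 0.32 higher in myogenic-like cells alone (adjusted p = 0.2515). The adjusted p of that difference was 0.122 without the E18 DZ library. The region was higher in neuron-like than in fibroblast and mesenchyme-like cells in 5 of 6 libraries.

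BOC encodes a cell surface protein that binds ligand with PTCH1 and is related to CDON. Its window gave 152 and 153 CPM at E18, 142.5 and 151.2 CPM at E21, then 164 and 145 CPM at E28, and the groups overlapped (log2 -0.04 ± 0.0881, adjusted p = 0.715). In fibroblast and mesenchyme-like cells alone the window was lower at E28 (log2 -0.37, adjusted p = 0.0292), while in myogenic-like cells alone it was 0.08 higher (adjusted p = 0.628). With finer clusters, the fibroblast and mesenchyme-like ones had mean CPM of 149.3 and 170.5 at E18, then 147.0 and 125.6 at E28. Sclerotome and cartilage-like cells had 202.9 at E18 and 188.9 at E28. A shift between such cells within the class was not tested. Of the 11 BOC regions tested, 3 were called higher and 4 lower at E28, where 19% and 18.1% of all regions were. The intron region 43.8 kb downstream (chr13:146657156-146661621, 4466 bp), the most counted BOC region outside the promoter, rose from 16.8 and 16.0 CPM at E18 through 17.6 and 24.5 at E21 to 44.2 and 45.6 at E28. Both E28 libraries were above the other 4 (log2 1.39 ± 0.173, adjusted p = 0.00447), and the difference was 0.72 with covered length as an offset (adjusted p = 0.000112). It also rose from E21 to E28, by 1.11 ± 0.172 (adjusted p = 0.0299).

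The BOC intron region was most open in myogenic-like cells. There it held 18.7, 23.4, 45.0, 64.5, 77.1 and 77.9 CPM in the 6 libraries in the order of stage and breed, against 20.2 CPM or less in endothelial-like cells. Within each library, where clusters share the same peaks, the log2 ratio of myogenic-like to fibroblast and mesenchyme-like cells was 0.15 and 0.65 at E18, then 1.60 and 1.65 at E21, then 1.01 and 1.117 at E28. It was above 0 in all 6 libraries. The region rose from E18 to E28 in myogenic-like cells alone by 1.96 (adjusted p = 6.47e-05) and in fibroblast and mesenchyme-like cells alone by 1.24 (adjusted p = 0.00793). The central 300 bases are shown because this region had the largest rise among the BOC introns named. Capitals mark CAGCTG, a sequence that MYOD1 and related myogenic factors bind. It reads the same on both strands and was searched for after the values had been seen.

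BOC intron region, chr13:146659239-146659538, plus strand: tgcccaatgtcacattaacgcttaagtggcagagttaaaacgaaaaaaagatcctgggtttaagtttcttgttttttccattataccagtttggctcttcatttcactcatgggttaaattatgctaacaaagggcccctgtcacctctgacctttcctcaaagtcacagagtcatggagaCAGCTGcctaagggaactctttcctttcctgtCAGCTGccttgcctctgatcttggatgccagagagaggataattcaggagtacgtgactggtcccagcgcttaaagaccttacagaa

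The stretch holds the letters CAGCTG at 2 places, and 18881 of the 78533 regions with peaks in all libraries (24.0%) hold them at least once in their central 300 bases.

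Other BOC regions moved down. The intron region at 30.2 kb held 20.3, 25.8, 26.9 and 23.8 CPM in the somite libraries and 11.4 and 6.77 CPM at E28 (log2 -1.43 ± 0.253, adjusted p = 0.0101, and -0.85 with the offset, adjusted p = 0.00277). In every library it was higher in neuron-like than in fibroblast and mesenchyme-like cells, by 1.14 to 2.66 on the log2 scale, and within fibroblast and mesenchyme-like cells alone its adjusted p was 0.0858. The exon region at 23.1 kb fell by 2.04 ± 0.369 (adjusted p = 0.0106). Its peaks covered 4346 and 4306 bp in the E18 libraries and 1033 and 594 bp in the E28 libraries. With the offset it was 0.39 higher (adjusted p = 0.1502), beside a median of 0.36 over all exon regions. The region at the end of the gene, at 78.8 kb, which also overlaps CFAP44, rose from 0.323 and 0.353 CPM to 1.87 and 5.93 CPM (log2 3.41 ± 0.733, adjusted p = 0.0171). Its covered length went from 213 and 207 bp (E18) to 545 and 1811 bp (E28), and with the offset the difference was 1.01 (adjusted p = 0.00210). The BOC promoter region, at 34.6 and 35.7 CPM at E18 and 30.2 and 33.8 CPM at E28, did not pass the threshold (log2 -0.19 ± 0.104, adjusted p = 0.1996). The 3 calls just named were lost without the E18 DZ library, with adjusted p of 0.0600 at 23.1 kb, 0.0616 at 30.2 kb and 0.105 at 78.8 kb, and the last was also lost without E18 ZZ (0.0526) or E28 DZ (0.0634).

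CDON, the other coreceptor, had the one promoter region of the 9 genes that was called higher at E28. It held 53.3 and 51.75 CPM at E18, 61.3 and 60.2 CPM at E21, then 69.1 and 70.3 CPM at E28 (chr9:53176389-53179655), and the stages did not overlap. The log2 difference between E28 and E18 was 0.36 ± 0.0825 (adjusted p = 0.0212), and its covered length hardly differed, at 3252 and 3213 bp against 3210 and 3208 bp. Summed over the peaks that overlap the promoter span alone, CDON was not called (log2 0.24 ± 0.0719, adjusted p = 0.0690). For the region, the difference was 0.66 in fibroblast and mesenchyme-like cells alone (adjusted p = 0.00534). It was 0.03 in myogenic-like cells alone (adjusted p = 0.862), where the 6 libraries held 55.6 to 65.0 CPM. The call was lost without any 1 library other than E28 ZZ (adjusted p = 0.0517 to 0.189, with the difference at 0.29 to 0.42). Its window gave 96.0 and 95.4 CPM at E18, 94.2 and 106 CPM at E21, then 103 and 106 CPM at E28 (log2 0.07 ± 0.0880, adjusted p = 0.558), and the difference was -0.27 in myogenic-like cells alone (adjusted p = 0.0717) and -0.10 in fibroblast and mesenchyme-like cells alone (adjusted p = 0.3695).

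Away from its promoter CDON had an intron region that closed and another that opened. At 26.9 kb, 15.4 and 16.5 CPM at E18 became 6.73 and 5.88 CPM at E21 and 3.67 and 1.63 CPM at E28 (log2 -2.72 ± 0.355, adjusted p = 0.00494), a fall present with the offset (-1.02, adjusted p = 0.000467) and within both cell classes. At 30.9 kb, 0.639 and 0.746 CPM at E18 became 2.84 and 3.11 CPM at E28 (log2 2.06 ± 0.438, adjusted p = 0.0167), a call lost without E18 ZZ (0.0647) or E18 DZ (0.134). Its covered length went from 349 and 320 bp (E18) to 551 and 652 bp (E28), and with the offset the difference was 1.22 (adjusted p = 0.000208). The exon region at 3.52 kb, the most counted outside the promoter, did not differ past the threshold (log2 0.01 ± 0.213, adjusted p = 0.974).

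HHIP binds Hedgehog ligands at the cell surface and so dampens the signal. Its window had the largest fall among the 9, from 70.6 and 88.8 CPM at E18 and 73.6 and 74.1 at E21 to 44.6 and 40.5 at E28. The E28 libraries were below all others. The log2 difference was -0.96 ± 0.120 against E18 (adjusted p = 0.00624) and -0.83 ± 0.119 against E21 (adjusted p = 0.0308). Within the classes tested it was -0.76 in fibroblast and mesenchyme-like cells (adjusted p = 0.00515) and -1.06 in myogenic-like cells (adjusted p = 0.00247). Its peaks covered less, going from 13706 and 13941 bp to 4689 and 5373 bp, or 0.364 times the E18 mean, while the counts fell to 53.4% of theirs. With that length as an offset the direction over all cells turned, to 0.49 higher at E28 than at E18 (adjusted p = 0.00217). The median over all windows was then 0.52. Against E21 it was 0.60 higher with the offset (adjusted p = 0.000817), beside a median of 0.33. The values within single classes had no such offset. Of the classes not tested, neuron-like cells fell from a mean of 112.4 CPM at E18 to 53.11 CPM at E28. Epithelial-like cells (61.55 and 66.48 CPM) and endothelial-like cells (45.81 and 46.45 CPM) did not fall.

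Many HHIP regions had no peak at E28. All 4 somite libraries and neither E28 library had a peak in 9 of its 17 regions, against 9.14% of all regions of the series. Only 3 HHIP regions had a peak in every library. The promoter region, which also covers the promoter of LOC100525237 on the other strand, held 38.7 and 44.8 CPM at E18 and 37.1 and 28.2 at E28 and did not pass the threshold (log2 -0.41 ± 0.144, adjusted p = 0.0714). Summed over the peaks that overlap the promoter span alone, HHIP was called lower (log2 -0.58 ± 0.120, adjusted p = 0.0362). The intron region at 63.5 kb rose from 1.63 and 1.61 CPM at E18 to 5.50 and 8.81 CPM at E21 (log2 2.02 ± 0.333, adjusted p = 0.0326) and held 3.33 and 5.62 at E28, 1.35 ± 0.329 above E18 (adjusted p = 0.0247). With the offset it was 1.28 higher at E21 (adjusted p = 0.000405) and 1.51 higher at E28 (adjusted p = 9.72e-06) than at E18. The call against E18 was lost without E18 DZ (adjusted p = 0.224), either E21 library (0.0520 and 0.0534) or E28 DZ (0.0514). In myogenic-like cells alone it was 0.80 lower (adjusted p = 0.3615), and it was below fibroblast and mesenchyme-like cells there in all 6 libraries.

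SMO, which passes the signal on across the membrane to the GLI proteins, did not differ between E28 and E18 past the threshold. Its window held 50.5 and 46.8 CPM at E18, 47.6 and 46.9 CPM at E21, then 55.5 and 47.3 CPM at E28 (log2 0.02 ± 0.0866, adjusted p = 0.891). The libraries of the 3 stages overlapped. The promoter region (chr18:19476754-19480830) held 38.1, 39.6, 42.2, 41.6, 50.2 and 42.5 CPM (log2 0.20 ± 0.100, adjusted p = 0.161), and the exon region at 25.0 kb held 4.83 to 7.802 CPM (adjusted p = 0.182).

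GLI1, the transcription factor whose own gene is a standard readout of the pathway, had 1 region, around its start (chr5:22735004-22739911). It held 62.2 and 69.0 CPM at E18, 68.9 and 69.7 CPM at E21, then 74.8 and 63.9 CPM at E28. The 3 stages overlapped (log2 0.03 ± 0.0987 in the fit over regions, adjusted p = 0.834). Its covered length at E28 was 0.938 times that at E18, the closest of the 9 genes. With the main clusters GLI1 was also the one gene whose level was highest in fibroblast and mesenchyme-like cells, at 75.5 CPM (67.9 to 79.8 over the libraries). With finer clusters it was highest in sclerotome and cartilage-like cells, at 93.3 CPM (72.9 to 110). Myogenic-like cells were below fibroblast and mesenchyme-like cells in all 6 libraries, by 0.16 to 0.49 on the log2 scale.

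GLI2, the main activator among the GLI factors, spans 267.7 kb (chromosome 15) and held the most regions and counts. Its window fell from 425 and 405 CPM at E18 through 367 and 368 at E21 to 312 and 252 at E28, and the stages did not overlap. The log2 difference between E28 and E18 was -0.62 ± 0.0883 (adjusted p = 0.00766), while covered length fell from 90191 and 75340 bp to 37712 and 35745 bp. With that length as an offset it was 0.53 higher (adjusted p = 0.000763), beside a median of 0.52 over all windows. Without the offset, values were lower within both cell classes. The difference was -0.77 in fibroblast and mesenchyme-like cells alone (adjusted p = 0.00783) and -0.29 in myogenic-like cells alone (adjusted p = 0.0460). Without the E18 DZ library its adjusted p was 0.0679. The promoter region did not move with the window: it held 90.8 and 96.7 CPM at E18, 99.9 and 106 CPM at E21, then 107 and 100.0 CPM at E28 (chr15:30571615-30580402, log2 0.09 ± 0.0766, adjusted p = 0.382), and it was 0.41 higher in myogenic-like cells alone (adjusted p = 0.0122). Of the 23 GLI2 intron regions tested, 3 were higher and 11 lower at E28, beside 18.8% and 17.1% of all intron regions, and 13 of its 75 regions had peaks in all 4 somite libraries and none at E28, as did 9.14% of all regions.

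The most counted GLI2 intron region, 36.1 kb downstream (chr15:30539189-30549169), went separate ways in different cells. Over all cells it held 44.5 and 36.6 CPM at E18, 29.0 and 25.2 CPM at E21, then 19.8 and 16.3 CPM at E28 (log2 -1.22 ± 0.109, adjusted p = 0.00288), and it fell already from E18 to E21 by 0.64 ± 0.108 (adjusted p = 0.0338). In fibroblast and mesenchyme-like cells it went from 48.4 and 42.3 through 22.9 and 20.01 to 10.5 and 6.13 CPM (log2 -2.46, adjusted p = 0.00162). In myogenic-like cells it held 45.5 and 39.5, then 55.7 and 45.1, then 59.0 and 44.5 CPM (log2 0.34, adjusted p = 0.0588). Set against each other within each library, which share the same peaks and covered length, the log2 ratio of myogenic-like to fibroblast and mesenchyme-like cells was -0.09 and -0.10 at E18, then 1.28 and 1.17 at E21, then 2.49 and 2.86 at E28. The 3 stages did not overlap in this ratio, which was not tested. Neuron-like cells showed the same order, from -0.44 and -0.53 at E18 to 1.48 and 1.46 at E28. With the offset the sum over all cells was 0.37 higher at E28 (adjusted p = 0.0236), beside a median of 0.48 over all intron regions. The direction of that sum depends on the setting.

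Far into GLI2, the 3 regions with the largest changes all fell and were small. The intron region at 208 kb held 10.9 and 8.24 CPM at E18 and 2.58 and 0.284 CPM at E28 (log2 -3.15 ± 0.788, adjusted p = 0.0268). The exon region at 247 kb fell by 3.79 ± 1.17 (adjusted p = 0.0495) and the intron region at 148 kb by 2.87 ± 0.539 (adjusted p = 0.0117). Under the offset they were -0.20, -0.32 and -0.58, none past the threshold. Without E18 DZ none of the 3 was called (adjusted p = 0.0622 to 0.0860), and the exon region was also not called without E18 ZZ or either E21 library (0.0874 to 0.114).

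GLI3, which acts mainly as a repressor when no ligand is present, spans 294.4 kb (chromosome 18). Its window held 245 and 257 CPM at E18, 270 and 299 CPM at E21, then 237 and 263 CPM at E28, with overlap (log2 -0.07 ± 0.0742, adjusted p = 0.489). The promoter region, shared with the start of the antisense RNA LOC110257576, held 57.6 and 59.3 CPM at E18 and 70.1 and 80.2 at E28. It did not pass the threshold (log2 0.31 ± 0.110, adjusted p = 0.0741), but was 0.52 higher both in fibroblast and mesenchyme-like cells alone (adjusted p = 0.0244) and in myogenic-like cells alone (adjusted p = 0.0139). Of the 21 regions tested, 4 were higher and 4 lower, close to the 19% and 18.1% of all regions.

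Among the GLI3 introns, the region at 96.5 kb (chr18:52499024-52500837) had the largest rise, from 1.23 and 0.906 CPM at E18 to 4.44 and 10.0 CPM at E21, then 11.3 and 7.78 CPM at E28. It was 2.68 ± 0.505 higher on the log2 scale at E21 (adjusted p = 0.0410) and 3.102 ± 0.504 higher at E28 (adjusted p = 0.00802) than at E18. Its peaks covered 529 and 397 bp at E18, 1076 and 1814 bp at E21, then 1383 and 1270 bp at E28, and with the offset the differences were 1.01 (adjusted p = 0.00564) and 1.58 (adjusted p = 1.175e-05). The level at E28 was 13.7 and 9.80 CPM in fibroblast and mesenchyme-like cells and 4.25 and 4.15 CPM in myogenic-like cells. The central 300 bases are shown because of this largest rise. They hold no CAGCTG, which 24.0% of the regions with peaks in all libraries hold, so its absence from 1 region says little. Only this 1 form was searched for, and no variants of it.

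GLI3 intron region, chr18:52499781-52500080, plus strand: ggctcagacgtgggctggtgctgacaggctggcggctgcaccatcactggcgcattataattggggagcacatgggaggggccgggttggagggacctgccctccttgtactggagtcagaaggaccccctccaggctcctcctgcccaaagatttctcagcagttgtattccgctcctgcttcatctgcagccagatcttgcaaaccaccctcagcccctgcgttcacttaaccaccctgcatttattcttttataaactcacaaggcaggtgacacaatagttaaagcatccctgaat

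Also in GLI3, the intron region at 256 kb rose from 5.60 and 3.70 to 15.9 and 19.3 CPM (log2 1.87 ± 0.296, adjusted p = 0.00750), while its peaks went from 1410 and 869 bp to 2577 and 2793 bp and the difference with the offset was 0.61 (adjusted p = 0.0136). The intron region at 177 kb fell by 1.38 ± 0.236 (adjusted p = 0.00908), but with the offset was -0.45 (adjusted p = 0.0967), and in all 6 libraries it was higher in neuron-like and lower in myogenic-like than in fibroblast and mesenchyme-like cells. The exon region at 86.5 kb, the most counted outside the promoter, held 33.9, 39.8, 41.0 and 42.9 CPM in the somite libraries and 27.0 and 27.2 CPM at E28 (log2 -0.49 ± 0.0962, adjusted p = 0.0133), and -0.03 with covered length as an offset. Neuron-like cells held 60.8 to 83.8 CPM there in every library, including 69.9 and 76.7 CPM at E28, and in myogenic-like cells alone the difference was 0.52 higher at E28 (adjusted p = 0.0373). Without E18 DZ the calls at 177 and 86.5 kb were lost (adjusted p = 0.0936 and 0.137), and the one at 86.5 kb also without E18 ZZ (0.0561).

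**Figure D2:**
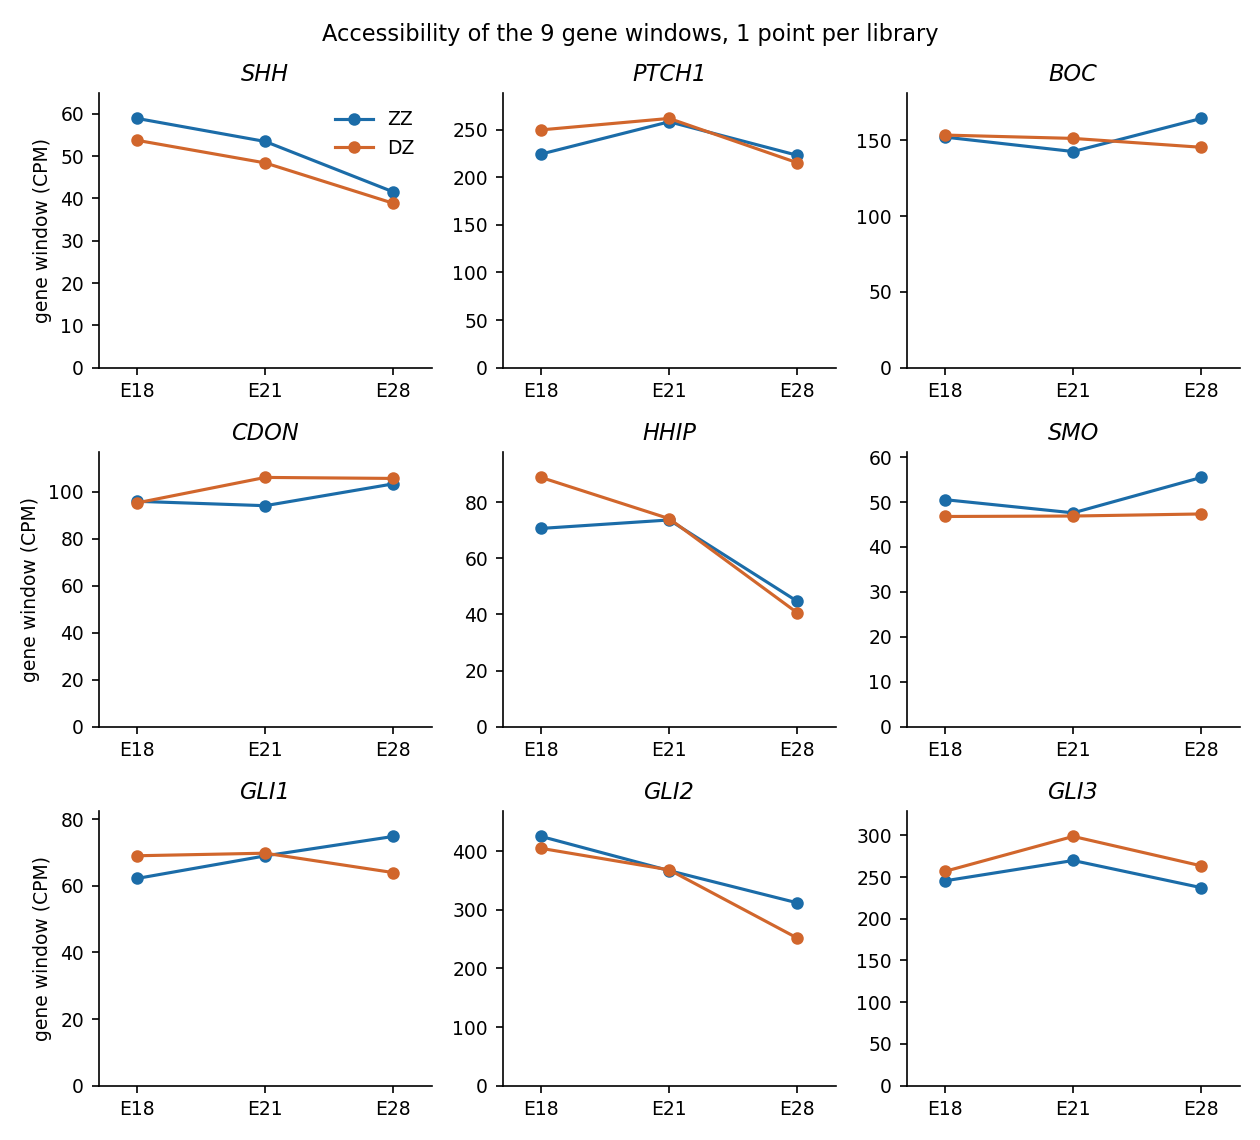
CPM in the window of each of the 9 genes (gene body plus 2 kb upstream), by stage, with 1 point per library and 1 line per breed. HHIP falls from 70.6 and 88.8 CPM at E18 to 44.6 and 40.5 CPM at E28 and GLI2 from 425 and 405 to 312 and 252 CPM, while SMO, GLI1, BOC and GLI3 overlap between E18 and E28. With covered length as an offset HHIP and GLI2 are 0.49 and 0.53 higher on the log2 scale at E28, beside a median of 0.52 over all windows.

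Counted over the 9 windows, 3 were lower at E28 than at E18 (SHH, HHIP and GLI2) and 0 were higher. Over all 22612 windows 23.1% were called lower and 19.4% higher, and the median log2 difference was -0.07 over the 9 and -0.06 over all. Without the E18 DZ library 1 of the 9 was called, beside 6.36% of all windows. In fibroblast and mesenchyme-like cells alone BOC, HHIP and GLI2 were called lower and 0 higher, beside 19.9% and 17.1% of all windows, and in myogenic-like cells alone HHIP and GLI2 lower and 0 higher, beside 23.7% and 19.5%. HHIP was the 1 window called between E28 and E21, lower, where 5.58% of all windows were lower and 1.04% higher. With covered length as an offset HHIP was 0.60 higher there (adjusted p = 0.000817). Under that offset 4 of the 9 were higher and 0 lower, beside 8529 and 141 of all 20368 windows. The HHIP call without the offset was lost when the E21 ZZ, the E21 DZ or the E28 DZ library was left out. Each such fit leaves 1 library in a stage, and fewer windows were called in it over all genes as well. Between E21 and E18, 0 of 9 were called by edgeR, beside 0.831% (higher) and 1.49% (lower) of all windows. In that comparison 0 of the 9 had an unadjusted p under 0.05, beside 28.8% of all windows, and DESeq2 called 1, beside 33.8%.

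Covered length fell in windows that were called and in windows that were not. For SMO, not called, it fell to 0.567 times, and for SHH, called lower, to 0.617 times. The peaks of whole libraries covered less as well, 168 to 191 Mb at E18 and 102 to 108 Mb at E28. Between E18 and E28 the mean covered length fell in all 9 windows, from 0.364 times (HHIP), 0.444 (GLI2) and 0.456 (PTCH1) to 0.717 (CDON) and 0.938 (GLI1). The counts at E28 were between 53.4% (HHIP) and 109% (CDON) of those at E18. With covered length as an offset, the median log2 difference over all windows moved from -0.06 to 0.52 and 7 of the 9 were called higher, at 0.43 to 0.95, beside 65% of all windows, with SHH at 0.14 and GLI1 at 0.10. Relative to that median, PTCH1 (0.95) and SMO (0.79) were above it and SHH and GLI1 below, each by more than 1 SE. CDON and GLI2 (both 0.53), HHIP (0.49), GLI3 (0.47) and BOC (0.43) were within 1 SE of it. The 3 windows called lower turned to higher with the offset, SHH without passing the threshold.

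**Figure D3:**
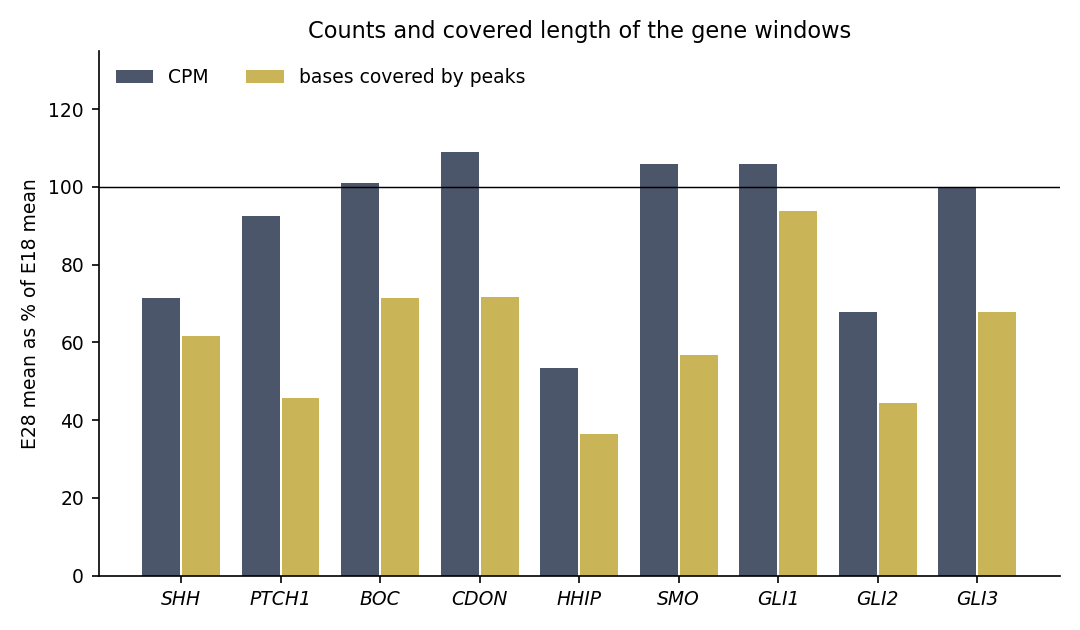
Mean counts and mean covered length at E28 as a percent of E18 for the window of each of the 9 genes. Covered length falls in all 9, to between 0.364 times (HHIP) and 0.938 times (GLI1), and by more than the counts, which lie between 53.4% and 109%.

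Region by region, 42 of the 82 regions tested differed between E28 and E18, 15 higher and 27 lower, while 19% and 18.1% of all 78533 regions were called higher and lower. The median log2 difference was -0.24 over the 82 and -0.02 over all. Among promoter regions 3 of 9 were called, CDON higher and SHH and PTCH1 lower, beside 23.9% higher and 16.4% lower of all promoter regions. With the offset 5 were called, PTCH1 lower and CDON (0.37), SMO (0.57), GLI2 (0.32) and GLI3 (0.66) higher, beside 51.8% higher and 5.45% lower of all promoter regions, whose median was then 0.37. Intron regions were called 10 higher and 17 lower of 51, beside 18.8% and 17.1% of all intron regions. Without the E18 DZ library 11 of 82 regions and 0 of 9 promoter regions were called, beside 10.5% of all regions, and without E18 ZZ 27 regions, beside 20.9%, so the counts of calls rest on the pair of E18 libraries, over all regions as well. Between E28 and E18, the calls named above that held without any 1 library were those of the HHIP window, of PTCH1 at 7.76, 33.8 and 69.8 kb, of BOC at 43.8 kb, of CDON at 26.9 kb, of GLI2 at 36.1 kb and of GLI3 at 96.5 and 256 kb. With covered length as an offset 34 were higher and 12 lower, beside 45.3% and 6.44% of all regions, with the median over all regions at 0.42. Of the 24 regions whose covered length agreed within 1.5 times across libraries, 9 were higher and 3 lower, beside 34.7% and 8.49% of all such regions.

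Between E21 and E18, 5 of the 82 regions were called, 4 higher and 1 lower, beside 4.78% and 1.68% of all regions. All 5 were intronic, 3 in GLI3 (higher), 1 in HHIP (higher) and 1 in GLI2 (lower). Leaving out an E18 or E21 library leaves 1 library in a stage. These 5 calls were lost in each such fit, as were most calls over all regions. From E21 to E28 with covered length as an offset, 20 of the 82 were called higher and 4 lower, beside 22581 and 1816 of all 78533 regions. Without the offset 11 were called, 2 higher and 9 lower, beside 2.48% and 4.56% of all regions, and 4 of the lower ones lay in GLI2 introns. The balance of directions depends on that setting. The calls without the offset were lost when an E21 library was left out, which leaves 1 library at that stage, and so were all calls over all regions.

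**Figure D4:**
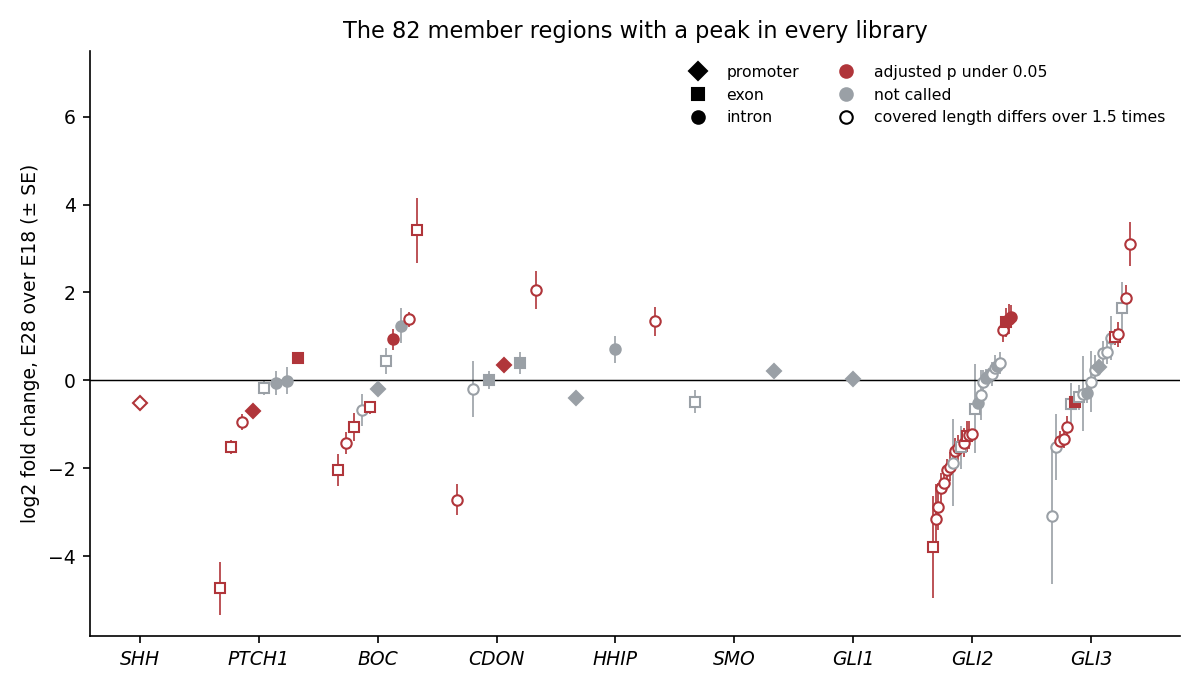
Log2 difference between E28 and E18 of the 82 tested regions by gene, sorted by value within each gene, with bars of 1 SE. Red marks called regions and grey those not called, the marker shape gives promoter, exon or intron, and open markers are regions whose covered length differs by over 1.5 times. Values run from -4.73 to 3.41, and 27 called regions lie below 0 and 15 above.

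As in the whole series, fewer of the regions had a peak at E28. Of the 237 regions, 191 and 179 had a peak at E18 (ZZ, then DZ), 157 and 171 at E21, but 111 and 110 at E28. Over all genes and intergenic sequence the numbers went from 213084 and 191913 regions with a peak at E18 to 123438 and 130447 at E28, of 294825. In 41 regions all 4 somite libraries and neither E28 library had a peak, 13 of them in GLI2, 10 in GLI3, 9 in HHIP, 4 each in PTCH1 and BOC and 1 in SMO. In the whole series 26957 regions (9.14%) had that pattern. Peaks in both E28 libraries and in no other were found in 4 regions, 3 in GLI3 and 1 in GLI2, and peaks in both E18 libraries and in no other in 17, while 2.235% and 12.73% of all regions had these patterns.

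The breeds did not differ in any of the 9 genes past the threshold. In the comparison of DZ with ZZ, blocked on stage, 0 of 9 windows were called by edgeR, beside 0.00442% of all windows, with 0 at an unadjusted p under 0.05 (5.21% of all) and 0 called by DESeq2 (2.28% of all). The largest difference was that of GLI3, 0.15 ± 0.0606 on the log2 scale in favour of DZ (adjusted p = 0.817), which was higher in DZ at each of the 3 stages. Of the 82 regions 0 were called by edgeR and 0 by DESeq2, beside 0.0% and 0.202% of all regions. An unadjusted p under 0.05 was found in 4, beside 4.91% of all regions, and the smallest adjusted p was 0.848.

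The share of barcodes with any count in a promoter region is the measure per cell. The PTCH1 promoter region was open in 13.6% of kept barcodes in the E18 ZZ library (95% exact binomial interval 13.0 to 14.3%, counting error only) and 15.7% at E18 DZ (15.0 to 16.4%), in 12.6% and 11.09% at E21, and in 7.76% (7.23 to 8.32%) and 8.05% (7.51 to 8.62%) at E28. Thinned to 4000 counts per barcode, since a share depends on depth, it was 7.83 and 8.77% at E18, then 7.21 and 6.50% at E21, then 5.07 and 4.90% at E28. For CDON the unthinned shares, 25.9, 25.9, 28.4, 26.1, 26.0 and 28.4%, showed no order by stage. Thinned, they were 15.6 and 15.1% at E18, then 17.4 and 16.7% at E21, then 18.5 and 19.4% at E28. GLI2 had the highest share of the 9, 35.9 to 41.4% of barcodes, and PTCH1 the lowest. The GLI2 promoter region is wider than that of PTCH1, and a share also depends on width.

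Across the clusters the 9 genes took different places. Over the 6 libraries, BOC (mean 191 CPM, 166 to 214), CDON (123, 109 to 141) and GLI2 (443, 356 to 479) were highest in myogenic-like cells, as was SMO by a margin within its spread. Some of these orders changed with the finer clusters. There CDON was highest in 1 of the fibroblast and mesenchyme-like clusters, at 128.5 CPM (the highest cluster in 4 of 6 libraries), and SMO in neural progenitor-like cells, at 54.3 CPM, while GLI2 was still highest in myogenic-like cells (in 5 of 6 libraries). BOC was so by mean, at 191 CPM against 186 CPM in sclerotome and cartilage-like cells, but in 3 of 6 libraries only. PTCH1 (278, 255 to 324), HHIP (88.2, 50.1 to 118), GLI3 (298, 221 to 352) and SHH were highest in neuron-like cells, a cluster in which the neural progenitor markers SOX1, SOX2, SOX3 and PAX6 were also raised. The finer clusters held a neuron-like and a neural progenitor-like cluster, and PTCH1 (330 CPM), HHIP (115) and GLI3 (351) were highest in neural progenitor-like cells. Neuron-like cells then held 239, 62.5 and 213 CPM of the same genes and were highest in SHH alone (65.7 CPM). All 9 were lowest in endothelial-like cells, by mean, with the main clusters, and 7 of the 9 were with the finer ones (the exceptions were SHH and GLI1). With the main clusters, endothelial-like cells were lowest in 3 of 6 libraries for SHH and SMO and in all 6 for GLI1, GLI2 and GLI3. For SHH they were highest in E18 ZZ (66.47 CPM, against 63.11 CPM in neuron-like cells). The share of all windows that were lowest in endothelial-like cells was not counted. The ratio of the highest to the lowest mean ran from 1.14 (SMO) to 2.41 (BOC) with the main clusters and from 1.25 (SMO) to 2.57 (GLI3) with the finer ones.

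Neighbours in these orders mostly overlapped. The range of BOC in myogenic-like cells overlapped that in fibroblast and mesenchyme-like cells (137 to 190 CPM), but within the same library the myogenic-like value was higher in 5 of 6. GLI2 was higher in myogenic-like cells in all 6 libraries, by 0.11 to 0.68 on the log2 scale, and so was CDON, by 0.05 to 0.28. HHIP was higher in neuron-like than in fibroblast and mesenchyme-like cells in all 6, by 0.23 to 0.72, and PTCH1 by 0.09 to 0.34. A cluster is no replicate and these orders are a description, with no test.

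**Figure D5:**
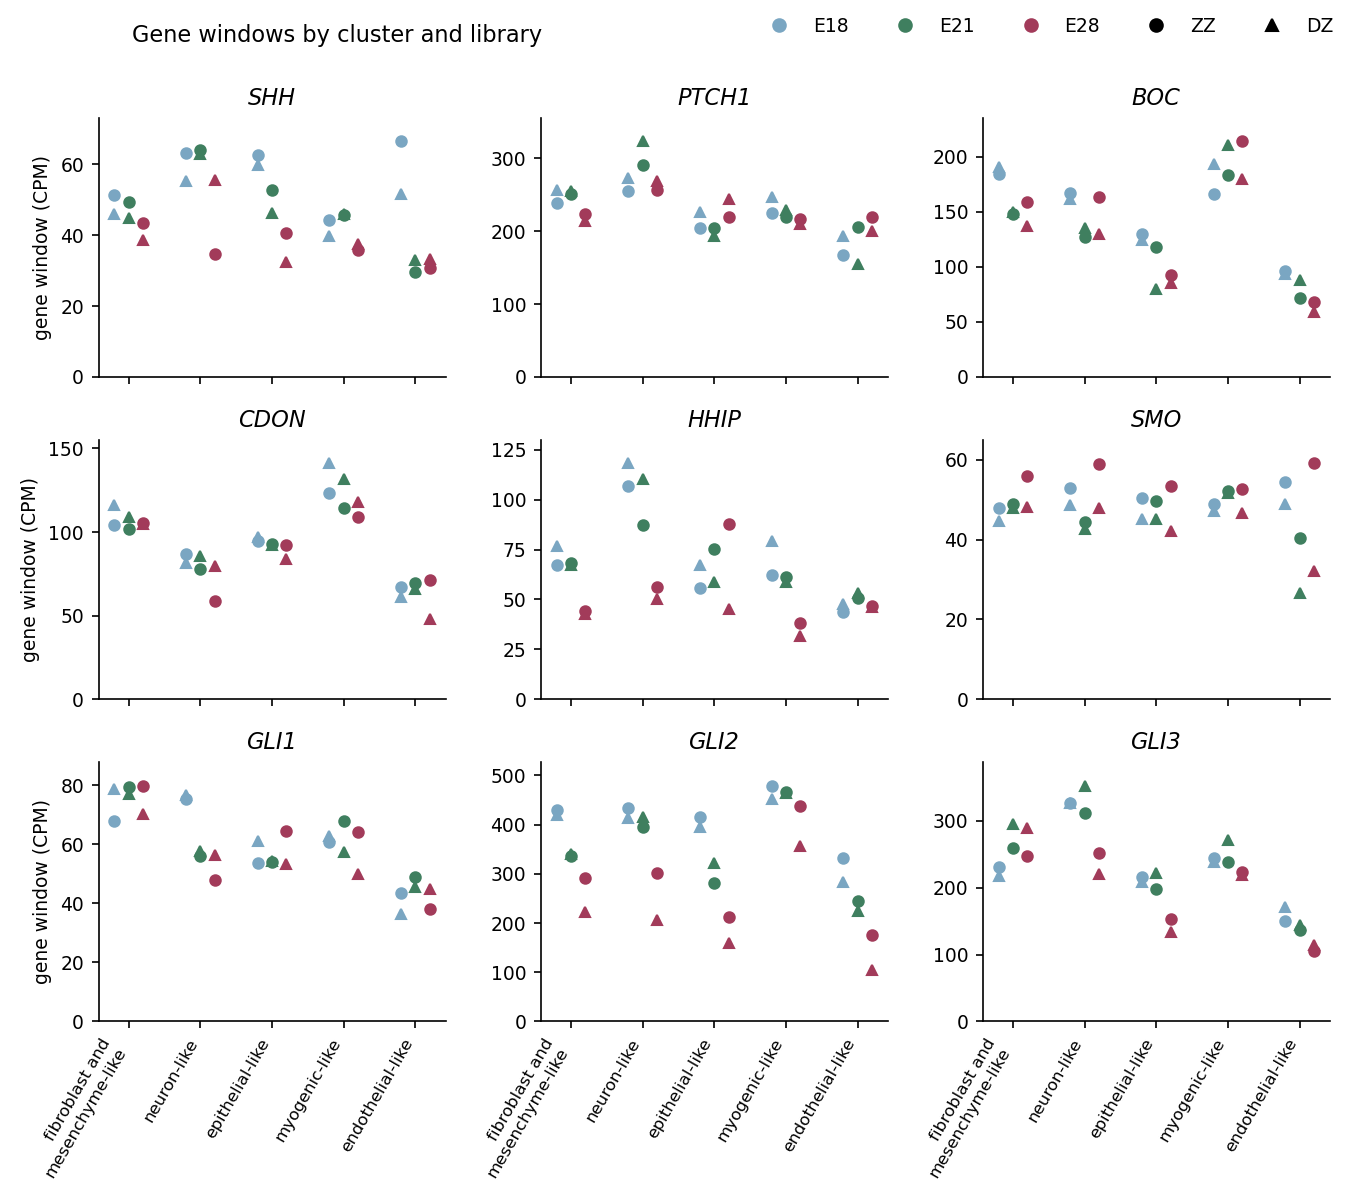
CPM in the window of each of the 9 genes by cluster, with 1 point per library, coloured by stage, circles for ZZ and triangles for DZ. Endothelial-like cells have the lowest mean for each gene, BOC, CDON and GLI2 are highest in myogenic-like cells (means of 191, 123 and 443 CPM) and GLI1 in fibroblast and mesenchyme-like cells (75.5 CPM).

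Over the 30 combinations of library and cluster, the windows most like each gene were found by Pearson correlation of log2(CPM + 1), as a description over points that share libraries and depth. ALK (r = 0.947), MYO16 (0.935) and NPAS3 (0.929) were most like GLI3, and ADCY5 (0.931), SDK1 (0.926) and ABCC8 (0.918) most like GLI2. PKNOX2 (0.923) and EYA2 (0.918) were most like BOC. PAX2 (0.852) and DENND1B (0.855) came first for SHH, SRGAP3 (0.821) for PTCH1, PLEKHB1 (0.833) and KCNJ9 (0.830) for HHIP, MKL1 (0.882) for CDON, C6H1orf216 (0.802) and ZBED3 (0.801) for SMO and C12H17orf67 (0.830) and AFF3 (0.820) for GLI1, leaving out genes known only by a LOC number.

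Of 57 other genes of the pathway, 56 were tested and 22 differed between E28 and E18, 7 higher and 15 lower. Over all windows 19.4% were higher and 23.1% lower, and the same shares apply to each small group below. Among ligands and release factors, IHH, DISP2, SCUBE1 and SCUBE3 were lower and DISP1 higher, of 8. SCUBE1, a secreted protein that helps release ligand, held 281 and 255 CPM at E18 and 152 and 133.5 at E28 (log2 -0.97 ± 0.0861, adjusted p = 0.00369), and DISP2, a relative of the ligand exporter DISP1, fell by 0.90 ± 0.0942 (adjusted p = 0.00461). IHH, another ligand, held 27.9 and 27.6 CPM at E18 and 20.5 and 17.4 at E28 (log2 -0.62 ± 0.109, adjusted p = 0.0119). Among receptors and coreceptors GAS1 was higher and LRP2 lower, of 4.

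In the relay at the cilium 2 were higher and 4 lower of 18, beside 19.4% and 23.1% of all windows. EVC2, which acts with SMO at the base of the cilium, held 63.9 and 63.9 CPM at E18 and 36.5 and 28.3 at E28 (log2 -1.06 ± 0.121, adjusted p = 0.00546), and IQCE, which holds EVC and EVC2 in place, fell by 0.75 ± 0.0848 (adjusted p = 0.00541). SPOP and CUL3, parts of a ubiquitin ligase that acts on GLI2 and GLI3, were both higher, by 0.84 ± 0.101 (adjusted p = 0.00587) and 0.72 ± 0.111 (adjusted p = 0.00896). Of 8 kinases tested 3 were higher and 0 lower, beside the same 19.4% and 23.1%. Among them was GSK3B, which phosphorylates GLI proteins, from 121 and 126 CPM to 187 and 179 (log2 0.50 ± 0.0865, adjusted p = 0.0115).

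Of 18 known target genes 0 were higher and 6 lower (FOXF1, FOXL1, OLIG2, CCND1, MYCN and BCL2), beside 19.4% and 23.1% of all windows. OLIG2, a target in the ventral neural tube, held 43.99 and 46.5 CPM at E18, 36.5 and 35.6 CPM at E21, then 23.1 and 24.1 CPM at E28 (log2 -0.999 ± 0.0984, adjusted p = 0.00417), while the share of neuron-like cells fell as given above. Its part in the difference was not tested. BCL2 held 146 and 146 CPM at E18 and 107 and 96.9 at E28 (log2 -0.58 ± 0.0801, adjusted p = 0.00729). With the offset 40 of the 56 were higher and 1, OLIG2 (-0.60), lower, beside 65% and 2.36% of all windows, so the directions of the others that fell depend on that setting. Without the E18 DZ library 7 of 56 were called and without E18 ZZ 10, beside 6.36% and 19.6% of all windows. Between E28 and E21, 6 of the 56 were lower and 0 higher, beside 5.58% and 1.04% of all windows. With the offset 0 were lower and 29 higher there, beside 141 and 8529 of all 20368 windows. Between E21 and E18 0 were called by edgeR, 16 had an unadjusted p under 0.05 and DESeq2 called 20, beside 28.8% and 33.8% of all windows. The same counts between breeds were 0, 1 and 0, beside 5.21% and 2.28% for the latter 2.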

How the data were processed

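The study made scATAC-seq libraries from nuclei of pooled embryos, and the authors deposited for each library a peak list and a matrix of counts per peak and barcode. Per the submitters' processing notes Cell Ranger ATAC, Seurat 3.1.1 and Signac 0.2.2 were used, and the matrix headers name Cell Ranger ATAC 1.2.0. The counts are transposition ends, and a fragment with both ends in a peak adds 2, so 90.1 to 92.4% of the values were even. The 9 genes and all lists were chosen with earlier results of these data known.

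Barcodes with 2000 to 30000 counts were kept. The study's further filters on barcodes (mitochondrial share, start site enrichment, nucleosome signal, share of reads in peaks) were not applied, and no doublet caller was run. Overlapping peaks (1 bp or more) of the 6 libraries were merged into regions, and counts were summed per library over gene windows and over the regions with a peak in all 6 libraries. Both tables were tested whole with edgeR 4.0.16 (R 4.3.3; quasi-likelihood, TMM, terms for stage and breed, 2 residual degrees of freedom) with Benjamini-Hochberg adjustment and a threshold of 0.05. With 1 library per stage and breed, breeds served as replicates of a stage. The spread behind the p-values is therefore how far stage changes differ between the breeds, with information shared over all features. The spread between sows of the same stage and breed was not measured. Each SE is the log2 difference divided by the square root of the F value of the test. DESeq2 1.42.0, another normalization, other filters, covered length, fragments, single cell classes and leaving out each library were alternatives. The tests within single cell classes were added after seeing the data. The study's own tests over cells were not used, since cells are not replicates.

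Cells were clustered (Leiden, resolution 0.3, alternative 0.6) on regions over 100 kb away from every listed gene, and a name needed 3 raised markers. The text names every promoter region, for each gene up to 3 other regions with the largest change past the threshold and the same direction in both breeds, the most counted other region, and the 10 pathway genes with the smallest adjusted p. In simulated counts the test recovered 67.7% of windows changed by 1 on the log2 scale and 85% by 2 (E28 against E18, 22590 windows), but 14% and 60% of regions (78533). In the simulation 99 or 100 features were changed at each size, but in the data 9607 windows and 29121 regions were called. The shares recovered therefore do not give the power of the test in the data. Intervals cover counting error only. Sequences were read from the RefSeq assembly of Sscrofa11.1.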

Additional observations from a re-analysis of the deposited data

Results flagged for a closer look

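In a few results the ZZ and the DZ libraries moved in opposite directions between E18 and E28. The log2 change of the BOC window was 0.112 in ZZ and -0.0777 in DZ. That of the GLI1 window, and of the GLI1 promoter region, which holds the only peak of that window, was 0.266 in ZZ and -0.11 in DZ. The GLI3 window changed by -0.049 in ZZ and 0.0364 in DZ, and the CDON exon region at 3.519 kb by 0.172 in ZZ and -0.0584 in DZ. Each value rests on 1 library per stage and breed, so the difference between breeds was not tested. None of these features was called between E28 and E18.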

How the results depend on the processing

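The stage comparisons had breed as a block. Without the breed term 3 windows, 41 regions, 3 promoter regions and 24 pathway windows were called between E28 and E18. Over all genes that fit called 10382 of 22612 windows and 29365 of 78533 regions. The labels give no replicate numbers to pair by. The breed comparison, which has stage as a block, called 0 of the 9 windows and 0 regions under every alternative that gave a value. Between E28 and E18, 3 windows, 42 regions, 3 promoter regions and 22 pathway windows were called. With covered length as an offset these were 7 windows, 5 promoter regions and 41 pathway windows; with covered length within 1.5 times they were 0 of the 1 window tested (GLI1), 12 of 24 regions and 6 of 12 pathway windows, so SHH, HHIP and GLI2 were not tested there. DESeq2 called 5 promoter regions, beside 33963 of all 78533 regions. Myogenic-like cells alone gave 27 regions, beside 27801 of all 76492. Promoter peaks alone gave 14 pathway windows, beside 5262 of all 18452 windows. Leaving out 1 library gave 1 to 3 windows, 11 to 44 regions, 0 to 4 promoter regions and 7 to 23 pathway windows, lowest each time without E18 DZ.

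Between E21 and E18 (0 windows, 5 regions, 0 promoter regions, 0 pathway windows), DESeq2 called 1 window, 15 regions and 20 pathway windows, and the offset 2 windows, 17 regions, 2 promoter regions and 11 pathway windows. Over all genes DESeq2 called 7808 of 23070 windows and 14219 of 78533 regions there, and the offset 4003 of 20368 windows and 14242 regions. The limit of 1.5 times left 1 of 24 regions and 3 of 12 pathway windows, regions with a peak in 2 or more libraries 0, fibroblast and mesenchyme-like cells alone 3 pathway windows and myogenic-like cells alone 2. Leaving out 1 library gave 0 to 21 regions and 0 to 5 pathway windows. Between E28 and E21 (1 window, 11 regions, 0 promoter regions, 6 pathway windows), DESeq2 called 5, 29, 1 and 17, the offset 4, 24, 2 and 29, and the limit of 1.5 times 0 of 1, 6 of 24, 1 of 8 and 3 of 12 (HHIP was not tested). Over all genes DESeq2 called 7849 of 23070 windows and 15465 of 78533 regions there. The offset called 8670 of 20368 windows and 24397 regions, and the limit 970 of 6511 windows and 3481 of 25935 regions. Promoter peaks alone gave 0 windows, regions in 2 or more libraries 0 regions, cut peaks 6 regions, fibroblast and mesenchyme-like cells alone 1 pathway window and myogenic-like cells alone 7 regions and 3 pathway windows. Leaving out 1 library gave 0 to 2 windows, 0 to 28 regions, 0 to 1 promoter regions and 0 to 12 pathway windows. The cause was not tested.

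Some log2 differences between E28 and E18 changed sign. With the offset, which moved the median of all windows from -0.06 to 0.52, the windows of SHH (0.14), PTCH1 (0.95), BOC (0.43), HHIP (0.49), GLI2 (0.53) and GLI3 (0.47) did, as did the SHH (0.16) and BOC (0.087) promoter regions, PTCH1 at 69.76 kb (0.79), BOC at 23.07 kb (0.39), SMO at 25.03 kb (0.30) and GLI2 at 36.09 kb (0.37). In myogenic-like cells alone the windows of BOC (0.084), CDON (-0.27), SMO (-0.0063) and GLI1 (-0.17) did, with the BOC (0.0067) and GLI1 (-0.059) promoter regions, PTCH1 at 21.68 kb (0.32), HHIP at 63.49 kb (-0.80), GLI2 at 36.09 kb (0.34) and GLI3 at 86.54 kb (0.52). In fibroblast and mesenchyme-like cells alone the CDON (-0.10) and GLI3 (0.22) windows and CDON at 3.519 kb (-0.27) did, with promoter peaks alone the GLI1 (-0.086) and GLI3 (0.14) windows, with fragments CDON at 3.519 kb (-0.0017) and with 4000 to 60000 counts the GLI1 promoter region (-0.014). Leaving out 1 library turned the windows of BOC (range -0.13 to 0.046), SMO (-0.042 to 0.072), GLI1 (-0.11 to 0.15) and GLI3 (-0.11 to 0.018), CDON at 3.519 kb (-0.17 to 0.18) and the GLI1 promoter region (-0.095 to 0.16). Of the single values that kept their sign, 531 stayed on the same side of the threshold, 64 were no longer past it, 17 came to pass it and 13 with no test (cluster levels and shares of barcodes) moved by more than their spread, and of the counts 177 stayed within 1.5 times of the main count and 66 did not.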
